A study of Mus musculus with 2 samples.

Results

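The AP-2 family of transcription factors comprises the 5 mouse genes Tfap2a, Tfap2b, Tfap2c, Tfap2d and Tfap2e. Members were chosen by name, as every gene and transcript entry whose gene identifier maps to one of these symbols in the GENCODE annotation. This gave 5 of 43346 genes and 16 of 103639 transcripts. The RNA came from embryonic facial prominences of mice of the B6NCrl strain at embryonic day 11.5, both sexes mixed, and carried added spike-in RNAs. Prominences of 109 embryos were pooled for library 1, and those of 88 embryos for library 2. Each library started from 10 ng of total RNA longer than 200 nt. There is 1 group and no contrast of conditions in the labels, and each comparison of the libraries describes how far 2 pools of the same tissue differed.

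AP-2 proteins bind GC-rich palindromes as homodimers or heterodimers through a basic helix-span-helix domain near the carboxyl end, and activate transcription through a proline-rich region near the amino end. In the embryonic head they act in surface ectoderm and in neural crest, the migratory population that forms most of the facial skeleton. Loss of Tfap2a in mice leaves the face and cranial vault open, and in humans TFAP2A and TFAP2B are the genes of branchio-oculo-facial syndrome and of Char syndrome. Facial prominences are the growing buds of the embryonic face, with crest-derived mesenchyme under a sheet of ectoderm. Because whole prominences were sequenced, fewer cells of a type and less RNA per cell cannot be told apart in any value given here.

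The 5 paralogs share one gene plan. In every member the exon numbered 5 is 119 nt long, begins in the same reading frame and codes for part of the conserved carboxyl-terminal region. No other exon length was common to all 5 transcripts compared, which were Tfap2a-202, Tfap2b-201, Tfap2c-201, Tfap2d-201 and Tfap2e-201. It is shown here because all 5 genes can be aligned over it without gaps. Each line gives the coding strand, on mm10 with GENCODE M21 exons, and capitals mark the bases that are not the same in all 5 genes. The exons lie at chr13:40721269-40721387 on the minus strand (Tfap2a), chr1:19228442-19228560 on the plus strand (Tfap2b), chr2:172554041-172554159 on the plus strand (Tfap2c), chr1:19119162-19119280 on the plus strand (Tfap2d) and chr4:126720486-126720604 on the minus strand (Tfap2e).
Tfap2a: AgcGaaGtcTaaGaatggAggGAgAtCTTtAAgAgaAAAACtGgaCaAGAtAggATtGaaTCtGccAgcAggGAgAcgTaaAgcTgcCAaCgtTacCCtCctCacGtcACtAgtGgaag
Tfap2b: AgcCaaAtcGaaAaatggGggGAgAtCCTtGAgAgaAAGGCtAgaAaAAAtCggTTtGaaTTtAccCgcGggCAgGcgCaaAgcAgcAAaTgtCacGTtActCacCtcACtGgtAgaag
Tfap2c: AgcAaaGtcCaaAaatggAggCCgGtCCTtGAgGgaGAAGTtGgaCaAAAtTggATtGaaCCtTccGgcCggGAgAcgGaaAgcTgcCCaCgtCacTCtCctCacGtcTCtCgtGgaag
Tfap2d: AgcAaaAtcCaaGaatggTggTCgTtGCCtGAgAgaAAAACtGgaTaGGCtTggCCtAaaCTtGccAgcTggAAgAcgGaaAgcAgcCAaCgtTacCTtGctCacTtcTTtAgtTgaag
Tfap2e: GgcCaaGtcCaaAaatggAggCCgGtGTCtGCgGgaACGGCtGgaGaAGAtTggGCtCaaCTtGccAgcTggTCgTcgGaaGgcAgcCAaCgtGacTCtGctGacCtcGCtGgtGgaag

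Of the 119 bases, 66 were the same in all 5 genes, which is 55.5%. The fewest differences in this exon, 24, separated Tfap2a from Tfap2c, and the most, 38, separated Tfap2b from Tfap2e. Over the whole coding sequence of one transcript per gene, identity was highest between Tfap2a and Tfap2b, at 72.9% of aligned bases, and lowest between Tfap2d and Tfap2e, at 64.4%. The longest run of bases shared by a pair of coding sequences, at any position, was 29 nt, between Tfap2a and Tfap2b. In the other pairs it was 11 to 22 nt. The deposited posterior SD of the gene count, which reflects reads that could belong to more than one gene, was 0 reads in both libraries for Tfap2b, Tfap2c, Tfap2d and Tfap2e. For Tfap2a it was 0.65 reads in library 1 and 0.41 reads in library 2, the same values as for its antisense neighbour Gm26688.

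Of the 5 members, 3 were detected, defined as at least 1 TPM (a length-scaled relative abundance) in both libraries, and 2 were not. By the same rule 58.5% of 21474 protein-coding genes and 32% of all 43346 genes were detected. The 3 detected members were Tfap2b, Tfap2c and Tfap2a, the members with known roles in crest and ectoderm. The sum over the family was 41.25 TPM in library 1 and 35.92 TPM in library 2, a mean of 38.6 ± 3.77 TPM (SD, n = 2).

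Tfap2b stands first in the order of TPM. The gene lies on chromosome 1 (plus strand, 19208914 to 19238576) and is required in mice for kidney, limb and ductus arteriosus development. It had 1302 expected counts in library 1 and 1187 in library 2. Its level was 21.8 TPM in library 1 and 17.0 TPM in library 2, with a mean of 19.4 ± 3.34 TPM (SD, n = 2). Library 1 was the higher, and both values were above those of every other member. Tfap2b held 50.1 ± 3.76% of the summed TPM of the family, and its mean exceeded that of 71.9% of protein-coding genes.

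Tfap2c followed. It lies on chromosome 2 (plus strand, 172549593 to 172558622) and is known from trophoblast and germ cells as well as from ectoderm. It had 757 expected counts in library 1 and 713 in library 2, or 13.51 and 12.45 TPM in the same order, and held 33.7 ± 1.35% of the family's TPM. Both Tfap2c libraries lay between those of Tfap2b and Tfap2a, with no overlap.

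Tfap2a was the lowest of the detected members. It lies on chromosome 13 (minus strand, 40715302 to 40738376) and is the family member most closely tied to facial closure. It had 362 expected counts in library 1 and 382 in library 2, or 5.93 and 6.16 TPM in the same order, and held 15.8 ± 1.96% of the family's TPM. Library 2 was the higher for this gene, whereas library 1 was the higher for Tfap2b and Tfap2c. The mean exceeded that of 56.0% of protein-coding genes, whose median over all of them was 3.45 TPM.

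As ratios of TPM within a library, Tfap2b over Tfap2c was 1.61 in library 1 and 1.37 in library 2 (mean 1.49 ± 0.171, SD, n = 2). Tfap2b over Tfap2a was 3.67 in library 1 and 2.77 in library 2, and Tfap2c over Tfap2a was 2.28 in library 1 and 2.02 in library 2. Each of these pairs was therefore apart in both libraries. The order of Tfap2b and Tfap2c depended on the length used. When counts were divided by the longest transcript of each gene, 5863 nt for Tfap2b and 2985 nt for Tfap2c, Tfap2b had 222 and Tfap2c 254 counts per kb in library 1, and Tfap2b had 202 and Tfap2c 239 counts per kb in library 2. On that scale Tfap2c was the higher in both libraries. With protein-coding transcripts alone, a choice made after the data were seen, Tfap2b stayed above Tfap2c, at 17.8 against 13.4 TPM in library 1 and 16.7 against 11.6 TPM in library 2. Tfap2a was below both on each of these scales.

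Tfap2d and Tfap2e lay near the limit of counting. Tfap2d, known from retina and midbrain, lies on chromosome 1 (plus strand, 19103022 to 19166346), 42.6 kb before Tfap2b. It had 1 count in library 1 and 4 counts in library 2, or 0.03 and 0.22 TPM in the same order. Tfap2e, known from the olfactory system, lies on chromosome 4 (minus strand, 126716006 to 126736240) and had 1 count in library 1 and 2 counts in library 2, or 0.02 and 0.05 TPM. Exact Poisson 95% intervals reached up to 0.164 TPM in library 1 and 0.562 TPM in library 2 for Tfap2d, and up to 0.137 TPM in library 1 and 0.174 TPM in library 2 for Tfap2e. Such intervals hold counting error alone: without molecular identifiers, reads do not stand for independent molecules. The values of Tfap2d and Tfap2e overlapped between genes, and their order could not be told at this depth.

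**Figure D1:**
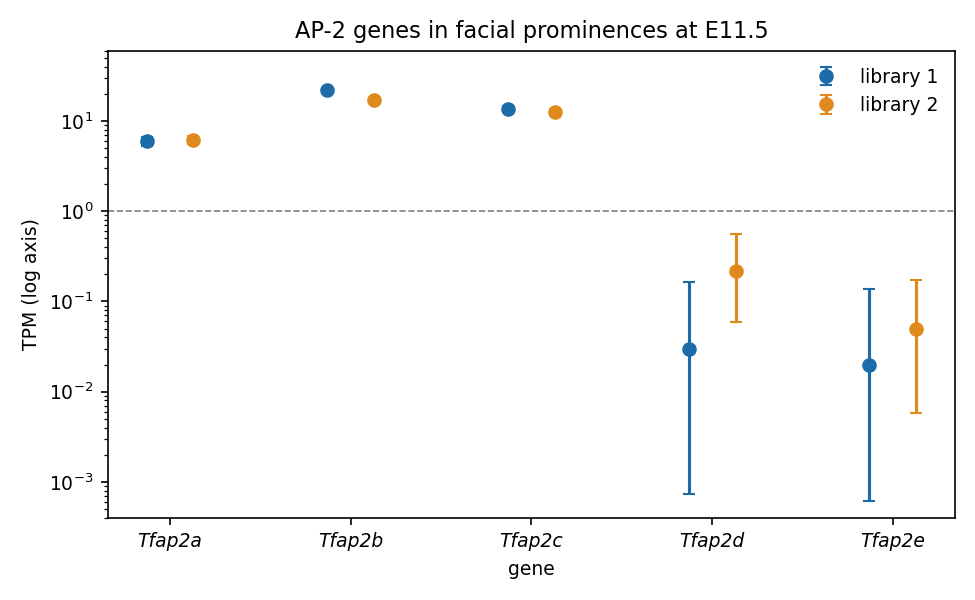
Level of each AP-2 gene in TPM on a log axis, with library 1 in blue and library 2 in orange, exact Poisson 95% intervals of the counts as bars, and the detection level of 1 TPM as a dashed line. Tfap2b, Tfap2c and Tfap2a lie above the line in both libraries, and Tfap2d and Tfap2e lie below it.

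The plot of levels shows the gap inside the family. The lowest value of a detected member was 5.93 TPM, for Tfap2a in library 1, and the highest value of an undetected member was 0.22 TPM, for Tfap2d in library 2. Detection of 3 members was unchanged at a limit of 0.5 TPM and at a limit of 5 TPM.

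Most AP-2 genes have more than one first exon, and the alternatives change the first amino acids of the protein ahead of the activation region. The coding bases of most of these first exons are of a short or a long kind, printed here because the transcript shares below turn on them. Tfap2d-201, with 39 coding bases in its first exon, and Tfap2c-202 and Tfap2c-206, with 240 and 165, were put in neither kind and are not printed. The short kind has 27 coding bases. It is found in Tfap2a-201 (chr13:40730039-40730065, minus strand), Tfap2b-202 (chr1:19212397-19212423, plus strand) and Tfap2e-201 (chr4:126735965-126735991, minus strand), on mm10. Capitals mark the bases that are not shared by all of these transcripts.
Tfap2a-201: atgttAgtTcacaGTtTTtcAGcTatg
Tfap2b-202: atgttAgtCcacaCCtATtcATcCatg
Tfap2e-201: atgttGgtGcacaCAtACtcCGcCatg

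Of these 27 bases, 18 were the same in all of them, and pairs shared 19 to 21. The long kind has 45 to 81 coding bases. It is found in Tfap2a-202 (chr13:40733670-40733714, minus strand), Tfap2b-201 (chr1:19209168-19209248, plus strand, also used by Tfap2b-204) and Tfap2c-201 (chr2:172549835-172549882, plus strand), on mm10. Capitals mark the stretch that was compared, which in Tfap2b-201 begins at a second ATG in frame.
Tfap2a-202: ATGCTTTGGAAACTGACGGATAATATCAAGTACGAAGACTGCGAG
Tfap2b-201: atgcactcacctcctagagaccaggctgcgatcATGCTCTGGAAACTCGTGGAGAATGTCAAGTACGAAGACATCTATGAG
Tfap2c-201: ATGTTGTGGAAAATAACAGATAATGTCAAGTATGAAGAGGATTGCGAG

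In this stretch Tfap2a-202 shared 37 of 45 aligned bases with Tfap2b-201 and 37 of 45 with Tfap2c-201, while Tfap2b-201 and Tfap2c-201 shared 33 of 48. Across the kinds, the first 27 bases compared without gaps shared only 7 to 11. A short and a long first exon thus exist in both Tfap2a and Tfap2b, and in each gene the long kind lies upstream of the short one. Summed over the family, transcripts with the short kind held 11.7 TPM in library 1 and 12.8 TPM in library 2 (12.3 ± 0.778, SD, n = 2). This sum includes Tfap2a-201, placed by its M21 first exon, at 5.64 TPM in library 1 and 5.65 TPM in library 2. It leaves out the noncoding Tfap2b-205, at 3.34 TPM in library 1 and 0.38 TPM in library 2. Transcripts with the long kind held 24.6 TPM in library 1 and 19.8 TPM in library 2 (22.2 ± 3.35). The long kind was the higher in both libraries, and Tfap2b and Tfap2c carried nearly all of it.

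**Figure D2:**
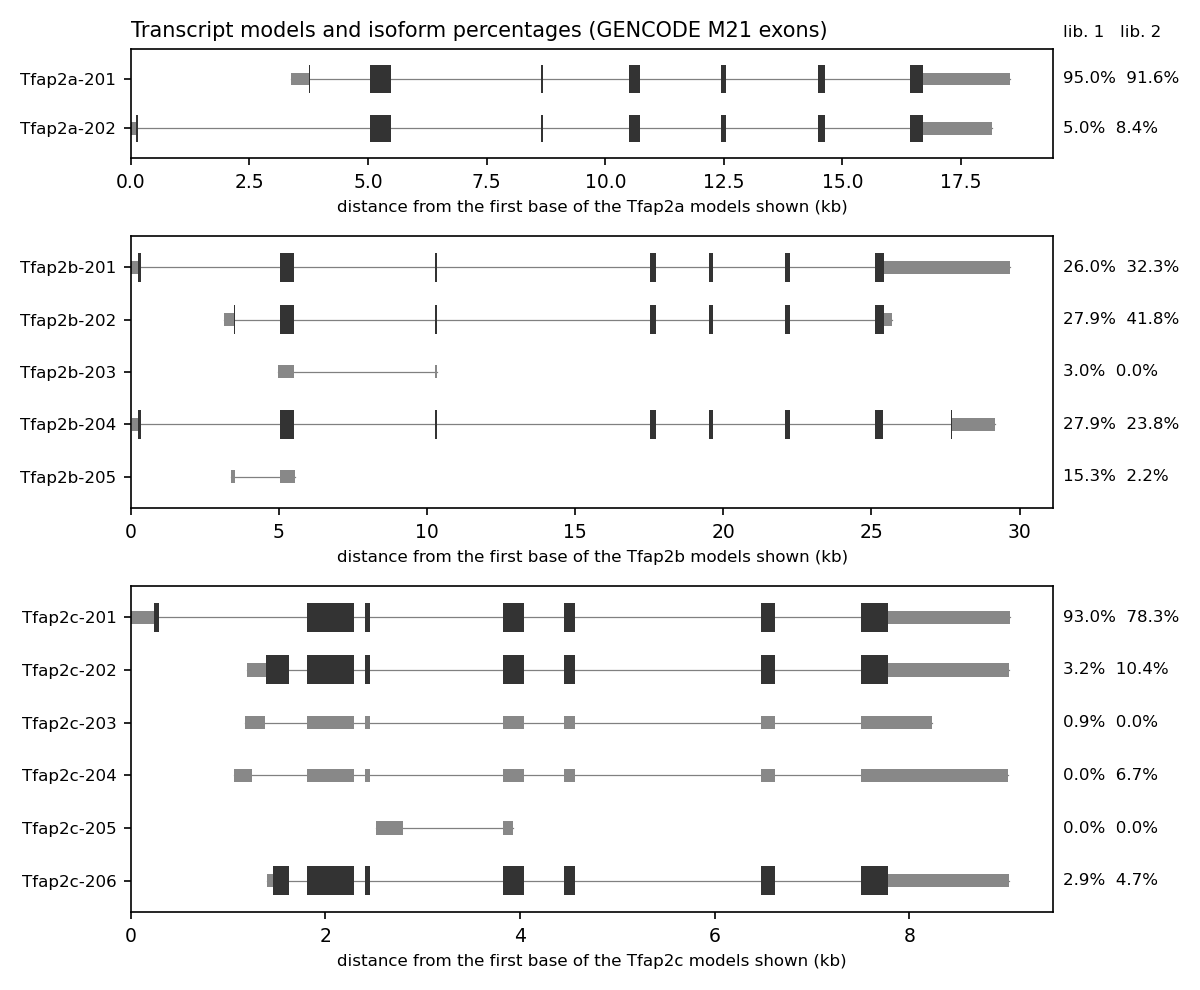
Transcript models of Tfap2a, Tfap2b and Tfap2c from GENCODE M21, drawn in the direction of transcription against distance in kb, with coding exons tall and dark, other exons low and grey, and the isoform percentages of library 1 and library 2 at the right. The first exons differ between transcripts while most internal exons are shared, and Tfap2a-201 is drawn with the M21 exons, which are longer in sum than the model that the authors quantified.

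In Tfap2a the transcript Tfap2a-201 led, which in M21 starts at the downstream, short first exon. Tfap2a-201 held 94.99% of the gene's TPM in library 1 and 91.6% in library 2, and Tfap2a-202, which starts at the upstream exon at chr13:40733670-40733823, held 5.01% in library 1 and 8.40% in library 2. Both libraries gave the transcripts this order. The upstream share was 6.71 ± 2.40% (SD, n = 2) and rested on 16.9 expected counts in library 1 and 29.9 in library 2, with posterior SDs of 8.43 and 9.75 counts in the same order. The files quantified 2 Tfap2a transcripts, against 9 in GENCODE M21, so reads from first exons of the other M21 models were not assigned to their own transcript. The model of Tfap2a-201 in the files is 3089 nt long, against 3487 nt in M21. Its first exon is given here from M21, and whether the quantified model starts there was not checked.

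Tfap2b divided its TPM between its first exons. The distal, long first exon at chr1:19208914-19209248, used by Tfap2b-201 and Tfap2b-204, held 53.8% in library 1 and 56.0% in library 2. The proximal, short first exon group at chr1:19212054-19212423, used by Tfap2b-202 and the retained-intron transcript Tfap2b-205, held 43.2% in library 1 and 44.0% in library 2. The distal exon was ahead in both libraries, with means of 54.9 ± 1.56% for the distal and 43.6 ± 0.559% for the proximal group (SD, n = 2). As shares of expected counts, a scale added after the data were seen, the distal exon held 79.2% in library 1 and 76.5% in library 2, since Tfap2b-201 is 5863 nt long and Tfap2b-202 is 1946 nt long.

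Within Tfap2b the libraries differed more by transcript than by first exon. Tfap2b-202 was the leading transcript in both, with 27.87% in library 1 and 41.8% in library 2, though in library 1 Tfap2b-204, at 27.85%, was nearly level with it. Tfap2b-201 held 26.0% in library 1 and 32.3% in library 2, and Tfap2b-204, which ends in a different last coding exon, held 23.8% in library 2. The retained-intron transcripts Tfap2b-203 and Tfap2b-205, which code for no protein in the annotation, held 18.3% of the gene's TPM in library 1 and 2.24% in library 2. Most of this was Tfap2b-205, a model of 610 nt with 34.9 expected counts in library 1 and 4.06 in library 2. Its posterior mean was 34.3 counts with an SD of 11.4 in library 1 and 11.5 counts with an SD of 8.25 in library 2.

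Tfap2c used mainly its first, long exon. Tfap2c-201, which starts at chr2:172549593-172549882, held 93.0% in library 1 and 78.3% in library 2, a mean of 85.6 ± 10.4% (SD, n = 2). The second first exon group, at chr2:172550653-172551221, held 7.04% in library 1 and 21.7% in library 2. Library 1 was the higher for Tfap2c-201 and library 2 for the second group, and the first exon led in both. In the second group the coding transcripts Tfap2c-202 and Tfap2c-206 held 3.25% and 2.87% in library 1, and 10.4% and 4.65% in library 2. The noncoding Tfap2c-204 was listed at 0 in library 1 and at 6.66% in library 2, and Tfap2c-203 at 0.92% in library 1 and 0 in library 2. The posterior mean of Tfap2c-204 was 11.1 counts with an SD of 11.4 in library 1 and 53.6 counts with an SD of 26.2 in library 2. Expected counts of Tfap2c-206 were 21.2 (posterior SD 28.6) in library 1 and 32.3 (37.4) in library 2. Those of Tfap2c-202 were 26 (15.65) in library 1 and 78.1 (21.55) in library 2. The noncoding Tfap2c-205 was listed at 0 in both libraries.

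**Figure D3:**
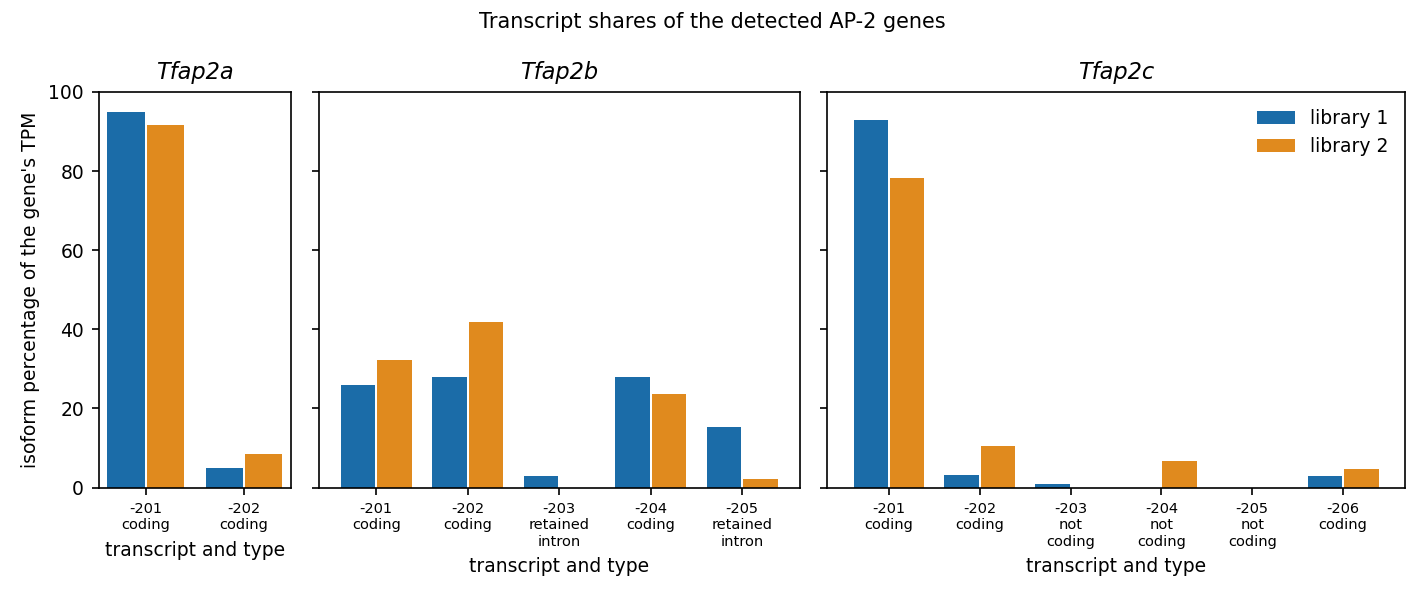
Isoform percentage of each transcript of Tfap2a, Tfap2b and Tfap2c, as a share of its gene's TPM on a linear axis from 0 to 100, with library 1 in blue beside library 2 in orange. A single transcript leads in Tfap2a and Tfap2c, and 3 coding transcripts share Tfap2b.

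In the plot of isoform percentages the tallest bars belong to Tfap2a-201 and Tfap2c-201, each at 78.3% or more in both libraries, while no Tfap2b transcript passed 41.8% in either. For Tfap2d, the 100% listed for Tfap2d-201 in library 1 and the 77.7% listed for Tfap2d-202 in library 2 rest on 1 and 2.3 expected counts, and Tfap2e has a single transcript.

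Between the libraries, the ratio of expected counts after TMM scaling (the trimmed mean of M-values, which sets the bulk of genes to a ratio of 1), library 1 over library 2, was 1.10 for Tfap2b, with an exact 95% Clopper-Pearson interval of 1.02 to 1.19. It was 1.06 for Tfap2c (0.959 to 1.18) and 0.9496 for Tfap2a (0.820 to 1.10). The interval excluded 1 for 1 of the 3 members with at least 50 counts, Tfap2b. The same rule called 42.5% of the 14790 genes with at least 50 counts, 20.4% of them higher in library 1 and 22% higher in library 2, so the members' count lies near that background. None of the 3 differed by 1.5-fold or more, a size reached by 6.71% of those genes, 4.23% higher in library 1 and 2.47% higher in library 2. With 1 library per pool there is no replicate check of a ratio, and none was tested. Of the 13560 protein-coding genes with at least 50 counts, 46.6% had a log2 ratio at least as far from 0 as that of Tfap2b. The share was 62.4% for Tfap2c and 68.1% for Tfap2a. Tfap2d had a ratio of 0.251 (0.00509 to 2.53) and Tfap2e 0.501 (0.00849 to 9.62), too wide to give an order.

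The ratio of Tfap2b was larger in TPM, at 1.28, than in counts, at 1.10. TPM divides counts by an effective length that averages over a gene's transcripts, and for Tfap2b that length was 2919 nt in library 1 and 3337 nt in library 2. Over its protein-coding transcripts alone the TPM ratio was 1.07. Counts of marker genes of other cell types with intervals off 1 are given beside this ratio, to be read against the background of 20.4% above and 22% below 1 over all genes. Of 15 surface ectoderm genes, 7 had intervals above 1 and 0 below, with a summed level of 354 TPM in library 1 and 317 TPM in library 2. Of 9 peripheral neuron genes, 6 were above and 0 below, with 402 TPM in library 1 and 332 TPM in library 2. Of 6 pigment cell genes, 4 were above, with 84.8 TPM in library 1 and 44.1 TPM in library 2, and of 10 eye and olfactory genes with enough counts, 8 were above and 2 below, with 269.7 TPM over the whole list in library 1 and 110.4 TPM in library 2. Of 11 facial mesenchyme genes, 3 were above and 7 below, with 896 TPM in library 1 and 940 TPM in library 2. The part of these cell types in the ratios of Tfap2b and the other members was not tested.

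**Figure D4:**
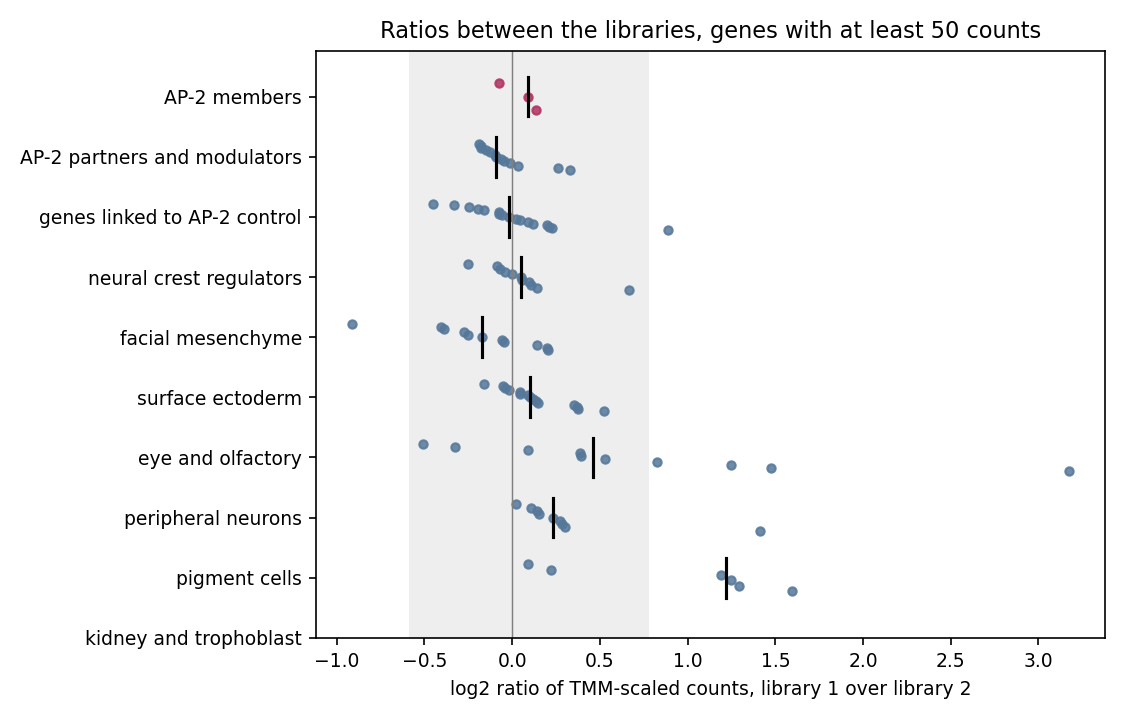
Log2 ratio of TMM-scaled expected counts, library 1 over library 2, for each gene with at least 50 counts, by list, with list medians as black bars and the central 95% of 14790 genes shaded. The AP-2 members lie between -0.07 and 0.14, inside the shaded range of -0.58 to 0.78, and the eye and olfactory and the pigment cell lists reach the largest ratios.

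In the plot of ratios the 3 members sit close to 0, with a median log2 ratio of 0.09, beside a median of 0.00297 over all genes tested. Among 82 other listed genes, those with the nearest log2 ratio were Hand2, Erbb3 and Pax7 for Tfap2a, Krt8, Msx1 and Isl1 for Tfap2b, and Ebf2, Kit and Epcam for Tfap2c. With only 2 libraries this likeness is a weak description, since 3991 to 5551 of all genes lay within 0.1 log2 units of a member.

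Transcripts of genes whose proteins bind or modify AP-2 were measured beside the family. Of 13 listed partners and modulators, 13 were detected, with a median of 37.5 TPM and a median log2 ratio of -0.09, and 2 had intervals above 1 and 6 below. By the same rules 58.5% of protein-coding genes were detected, and of all genes with at least 50 counts 20.4% lay above 1 and 22% below. Among the coactivators that bridge AP-2 to histone acetyltransferases, Cited1 had 41.9 TPM in library 1 and 46.4 TPM in library 2, Cited2 had 36.9 and 37.97 TPM, and Cited4 had 5.34 and 5.75 TPM, each in the same order of libraries. The acetyltransferases themselves were at 25.5 ± 0.205 TPM for Crebbp and 14.1 ± 1.68 TPM for Ep300 (SD, n = 2). Of the repressors, Kctd15, which binds the AP-2 activation region, had 20.4 TPM in library 1 and 15.1 TPM in library 2, with a count ratio of 1.26 (1.14 to 1.39), and its paralog Kctd1 had 17.6 TPM in library 1 and 16.8 TPM in library 2, with a ratio of 1.02 (0.915 to 1.14). Npm1, a nucleolar chaperone reported as an AP-2 partner, was at 1044 ± 60.05 TPM, and the demethylase gene Kdm5b, the chromatin reader gene Yeats4 and the tumour suppressor gene Wwox, each reported to bind an AP-2 protein, were at 62.5 ± 0.0212, 98.1 ± 3.42 and 5.97 ± 0.735 TPM in that order (SD, n = 2).

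Genes linked to AP-2 control in earlier work on face, crest or epithelium were likewise all detected, 17 of 17, with a median of 14.4 TPM and a median log2 ratio of -0.02. Intervals lay above 1 for 4 and below 1 for 4. Over all genes with at least 50 counts, 20.4% lay above 1 and 22% below, so these counts lie near the background. The detection rule was met by 58.5% of protein-coding genes. The homeobox genes of the upper face Alx1 and Alx4 had means of 130.7 ± 14.1 and 12.9 ± 0.346 TPM in that order. The lower jaw regulators were at 44.5 ± 4.86 TPM for Dlx5, 3.13 ± 1.00 TPM for Dlx6 and 6.72 ± 0.156 TPM for Hand2, and Hoxa2, a gene of the second arch, was at 16.9 ± 2.55 TPM (SD, n = 2 for each). Epithelial genes included Krt14 at 23.5 ± 0.304 TPM, Cdh1 at 15.3 ± 0.622 TPM and Krt5 at 5.29 ± 0.361 TPM. The receptor genes Erbb2, Kit and Erbb3 were at 21.6 ± 2.33, 14.4 ± 0.205 and 7.87 ± 0.198 TPM, and Igfbp5, a growth factor binding protein, at 53.0 ± 0.827 TPM. Wnt9b, a Wnt ligand of facial ectoderm, had 2.98 TPM in library 1 and 1.58 TPM in library 2, a count ratio of 1.85 (1.51 to 2.28), the one gene of the list that reached 1.5-fold, and Wnt3 was at 3.79 ± 0.318 TPM.

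**Figure D5:**
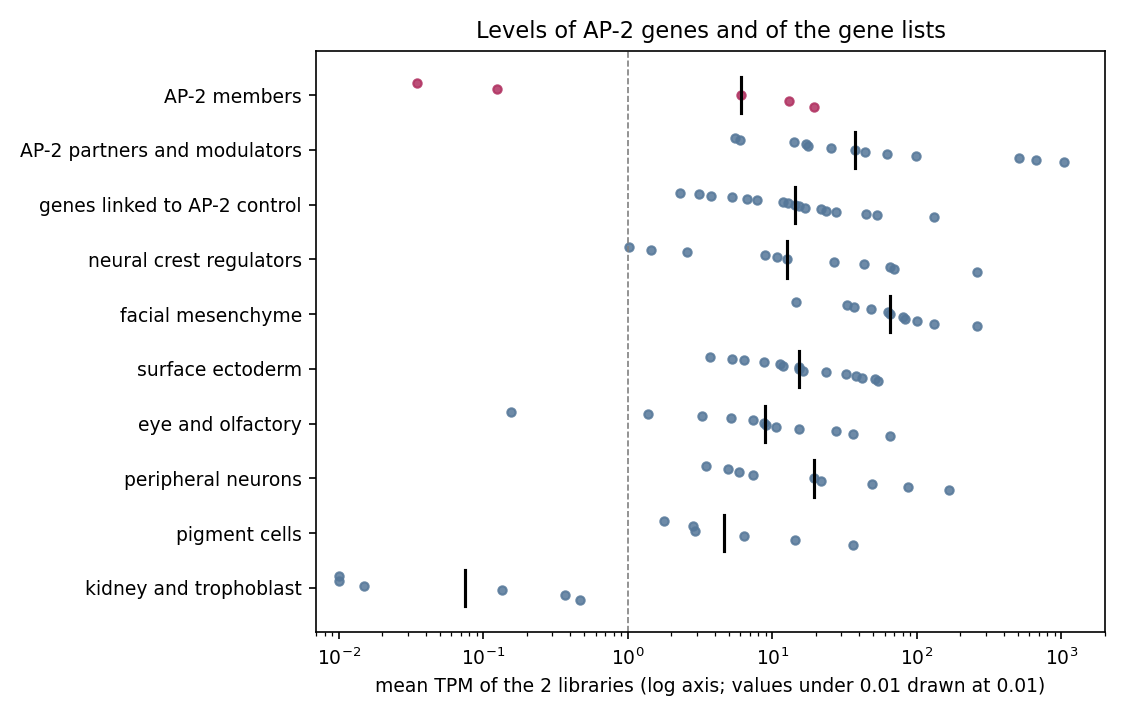
Mean TPM of the 2 libraries for each gene, on a log axis, by list, with list medians as black bars, the detection level of 1 TPM as a dashed line, and values under 0.01 drawn at 0.01. Of the AP-2 members, 3 lie above 1 TPM and 2 below, and all genes of the kidney and trophoblast list lie below.

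In the plot of list levels the detected members sit under most facial mesenchyme genes and in the range of the surface ectoderm list. They also lie in the range of the neural crest, eye and olfactory, peripheral neuron, pigment cell, AP-2 partner and AP-2 control lists. Marker genes were set beside the tissue label, in lists chosen with earlier results of these data known. By the same rule 58.5% of protein-coding genes were detected. So were 9 of 9 peripheral neuron, 6 of 6 pigment cell and 10 of 12 eye and olfactory genes. Detection of the facial lists therefore does not single out the facial label. Facial mesenchyme genes were all detected, 11 of 11, led by Msx1 (263 TPM), Alx1 (130.7 TPM), Prrx1 (101 TPM) and Prrx2 (82.3 TPM), and so were surface ectoderm genes, 15 of 15, led by Epcam (54.2 TPM), Krt18 (51.4 TPM), Krt8 (41.6 TPM) and Cldn6 (37.9 TPM). Of 11 neural crest regulators, 10 were detected, led by Msx1, Sox9 (69.7 TPM), Twist1 (64.9 TPM) and Snai2 (43.1 TPM), while Foxd3 had 1.25 TPM in library 1 and 0.78 TPM in library 2. Genes of kidney and trophoblast, tissues in which Tfap2b and Tfap2c are also known to act, were below 1 TPM in both libraries for all of Wt1, Umod, Nphs1, Prl3d1, Elf5 and Gcm1. Omp, a marker of mature olfactory neurons, was also below 1 TPM in both libraries.

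Of the genes that overlap or flank the detected members, Gm26688 and Gm14303 were above 1 TPM. Gm26688, annotated on the opposite strand across Tfap2a at chr13:40727808-40735162, had 1.35 TPM in library 1 and 1.69 TPM in library 2, which is 22.8% and 27.4% of the Tfap2a level in the same order. Its exons overlap Tfap2a-202 by 111 nt and Tfap2a-201 by 0 nt. The sources used here do not say whether counting used strand, and without strand, reads from Tfap2a-202 and Gm26688 could not be told apart in that overlap. The posterior SD of 0.65 reads in library 1 and 0.41 reads in library 2, given above for both genes, is small beside their counts. The lincRNA Gm9979 and the pseudogene Gm6245, on either side of Tfap2a, were at 0.07 TPM or less in both libraries. Gm28340, a lincRNA 4.15 kb past Tfap2b, was listed at 0 in both. Near Tfap2c, the processed pseudogene Gm14303, 39.9 kb away, was listed at 683 TPM in library 1 and 634 TPM in library 2. These values rest on 1008 expected counts (posterior SD 35.9) in library 1 and 953 (32.7) in library 2. The gene is short, at chr2:172509521-172509691, and TPM divides counts by length, so its TPM is high for its counts. The values are uncertain, since such a copy can share reads with its parent gene, which was not tested.

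Each undetected member had a gene above 1 TPM within 100 kb. For Tfap2d it was Tfap2b, 42.6 kb past it, at 21.8 TPM in library 1 and 17.0 TPM in library 2. Gm15825 and Gm10075, which overlap Tfap2d, were at 0.29 TPM or less in both libraries, and Gm28344, beside it, was listed at 0. Tfap2e lies between active genes. Psmb2, a proteasome subunit 6.29 kb away, had 436 TPM in library 1 and 423 TPM in library 2, and Ncdn, a neuronal cytoplasmic protein gene 7.51 kb away, had 17.6 TPM in library 1 and 15.9 TPM in library 2.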

How the data were processed

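Total RNA from 2 pools of facial prominences was sequenced, 1 library each. The values are the authors' deposited gene and transcript quantifications, in the column layout of RSEM: expected counts, TPM and isoform percent (a transcript's percent of its gene's TPM), with posterior means and SDs, per the file headers. The models are those of GENCODE M4 on mm10, per the note the authors deposited with the files. The aligner settings and the use of strand are not given in the sources used here. Genes and transcripts were named from GENCODE M21 by identifier, 42462 of 43346 genes. Total expected counts were 30849058 in library 1 and 31600302 in library 2. Entries that name no gene were left out of library sizes: spike-ins held 7.20% and 7.34% of counts, and numeric entries 2.92e-05% and 1.90e-05%, library 1 first. Deposited TPM were used as given, so spike-ins take 15.4% and 15.8% of them.

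Levels are means with SD over the 2 libraries. With 1 group no test between conditions exists. Ratios used expected counts, rounded to whole numbers for the exact 95% Clopper-Pearson interval, scaled by TMM in edgeR 4.0.16 after its expression filter (15986 genes); DESeq2 1.42.0 size factors were an alternative. No pseudocount was used. R 4.3.3 and Biopython 1.88 were used. The ratio step was run on simulated Poisson counts, which hold only the counting error that the interval assumes. That run therefore cannot show how the interval covers differences between pools. The first exons, coding bases and coordinates come from GENCODE M21 on mm10. Named genes were the members, their transcripts, overlapping and nearest genes within 100 kb, all genes of the partner and AP-2 control lists, the 4 most abundant detected genes of other lists, listed genes below 1 TPM, and the 3 genes nearest in library ratio to each detected member. Values of some listed genes are not reported here, while the counts, sums and medians of the lists include them. The members and lists were chosen with earlier results of these data known.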

Additional observations from a re-analysis of the deposited data

How the results depend on the processing

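Of the alternative values, 121 stayed within the spread or kept their call, 10 moved and none reversed. For levels and shares, the value of 1 of the 2 libraries always lies within their SD, so leaving out a library could not count as moved. Posterior mean counts gave the same ratios as the main counts. The 121 include such values and are no measure of robustness. With TPM rescaled over mouse genes only, the levels were 7.16 TPM for Tfap2a, 23.0 TPM for Tfap2b and 15.4 TPM for Tfap2c. By counts per kb of the longest transcript, the family shares were 20.8% for Tfap2a, 36.5% for Tfap2b and 42.4% for Tfap2c, which turns the order of Tfap2b and Tfap2c. The posterior mean TPM of Tfap2e was 0.060. The leading first exon of Tfap2b held 53.1% by posterior means, 61.6% of protein-coding transcripts alone and 77.9% of expected counts, the last scale added after the data were seen. By posterior mean TPM and by protein-coding transcripts alone, the leading transcripts were again Tfap2a-201, Tfap2b-202 and Tfap2c-201. By expected counts Tfap2b-201 led, with 668 counts in library 1 and 662 in library 2. The scale of library 2 over library 1 was 1.00 by TMM and by DESeq2 size factors, 1.02 by gene totals and 1.04 by spike-ins. Leaving out 1 library in turn, the family share ranged over 47.4 to 52.8% for Tfap2b, 32.8 to 34.7% for Tfap2c and 14.4 to 17.1% for Tfap2a. No paired analysis was possible because there is 1 group. The precision is limited by 2 libraries and, for Tfap2d and Tfap2e, by counts of 1 to 4. The cause of these moves was not tested beyond the change of scale itself.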

Other observations

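Marker genes of cell types at the edge of the facial prominences were measured beside the family. Of the eye and olfactory list, the lens crystallin gene Cryaa had 118 TPM in library 1 and 12.9 TPM in library 2, and the count ratio, library 1 over library 2, was 9.02 (95% interval 7.99 to 10.2). Pmel, a melanosome gene also on the pigment list, had 51.0 TPM in library 1 and 21.2 TPM in library 2, Pax6, a regulator of eye development, 20.0 TPM in library 1 and 10.5 TPM in library 2, and Ebf2 28.8 TPM in library 1 and 26.3 TPM in library 2. Of the pigment list, the melanin synthesis genes Dct and Tyr had 8.96 and 4.17 TPM in library 1 and 3.86 and 1.67 TPM in library 2, while the receptor gene Kit had 14.6 TPM in library 1 and 14.3 TPM in library 2. The peripheral neuron list was led by Tubb3, a neuronal tubulin, with 187 TPM in library 1 and 149.7 TPM in library 2, followed by Stmn2 with 91.1 TPM in library 1 and 81.9 TPM in library 2, Isl1 with 54.9 TPM in library 1 and 43.5 TPM in library 2, and Pou4f1 with 22.2 TPM in library 1 and 21.04 TPM in library 2. The ratios of the 3 AP-2 members with at least 50 counts, from 0.9496 to 1.10, were nearer to 1 than those of Cryaa, Pmel, Pax6, Dct and Tyr.

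The AP-2 binding palindrome GCCNNNGGC, read on both strands, was searched in RefSeq promoter windows of 300 bases (250 before and 50 after a transcript start, GRCm38.p6). It was found in 0 of 7 windows of the 4 AP-2 genes that have one here, and in 16.6% of 32851 windows of all genes. Tfap2c has no window. The M21 start of Tfap2a-201 and the distal start of Tfap2b, which led in these libraries, lie in none of the windows. The windows of undetected Tfap2d and Tfap2e are among the 7, and some of Tfap2d overlap, so this is no result for the family. The absence of these letters says nothing about binding in or outside the windows.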
